A study of Camellia sinensis with 9 samples.

Results

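The sulfate and phosphate miRNAs of the tea plant, Camellia sinensis, are the miR395, miR399, miR827 and miR2111 families. They were taken as every listed miRNA whose name carries one of these family numbers, from either arm of the hairpin, and names with the same sequence were joined. This gave 39 distinct sequences (41 of the 371 names listed) among 341 distinct sequences in all: 17 of miR395, 19 of miR399, 1 of miR827 and 2 of miR2111. Small RNA was sequenced from flower, root and leaf of plants for which the labels name no treatment, with 3 libraries per organ (flower1, flower2 and flower45; root13, root23 and root33; leaf1, leaf23 and leaf41). The labels give neither strain nor plant age and do not say whether libraries of an organ came from separate plants, so p-values measure only the spread between these libraries, which may be technical. The organ labels could not be checked by marker genes, since the table holds miRNAs only.

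Plant miRNAs are cut from a hairpin as a duplex of a 5p and a 3p strand, one of which is usually kept and pairs with target transcripts. In Arabidopsis, miR395 accumulates under sulfate shortage and acts on ATP sulfurylases and a sulfate transporter. There miR399 accumulates under phosphate shortage and acts on PHO2, a ubiquitin-conjugating enzyme that limits phosphate uptake and transport to the shoot, and miR827 acts on NLA, a ubiquitin ligase that limits phosphate transporters. miR2111 also responds to phosphate supply in Arabidopsis, and in Lotus it moves from shoot to root and acts on TML, an F-box gene that limits nodulation.

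The members with at least 10 reads, and the only miR827 sequence, which had none, are shown because the results turn on them. The seed, bases 2 to 8 from the 5′ end, is in capitals. They are spelled as deposited, with U or T.
miR395g_3p (also listed as miR395_3p): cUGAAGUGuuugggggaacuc
MIR395k_3p: uGAAGUGUuugggggaacuc
MIR395r_3p: uUGAAGUGuuuggaggaacuc
MIR395i_3p: cUGAAGUGuuuggaggaacuc
miR395b_3p: cTGAAGTGtttgggggaactt
miR399c_3p: uGCCAAAGgagaauugcccug
miR399d_3p: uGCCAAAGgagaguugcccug
MIR399o_3p: uGCCAAAGgagauuugccucg
MIR399l_3p: uGCCAAAGgagauuugcccga
MIR2111a_5p: uAAUCUGCauccugagguuug
MIR2111a_3p: gUCCUCGGguugcagauuacc
miR827a_3p: tTAGATGAccatcagcaaaca

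The miR395 3p sequences were close variants of one another. With positions counted from 1 at the 5′ end of miR395g_3p, MIR395i_3p differed from it by G14A, MIR395r_3p by C1U and G14A, and miR395b_3p by C21U. MIR395k_3p had no difference but started at base 2 of miR395g_3p, and the rarer MIR395j_3p and MIR395n_3p were likewise contained in or shifted against it without a difference. How reads were assigned to such nested sequences is not given in the sources used here. Against miR399c_3p, miR399d_3p differed by A13G alone, and MIR399l_3p and MIR399o_3p shared A13U and differed further at the 3′ end (U20G and G21A in MIR399l_3p, C19U and U20C in MIR399o_3p).

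The seed of miR395g_3p stood in 4 member sequences and that of miR399c_3p in 6, and no sequence outside the 4 families had either. Of the 39 sequences, 26 were 21 bases long, the others 19 to 24. Of the 10 miR399 3p sequences 8 began with U, and of the 9 miR399 5p sequences 7 began with G. The opposite strands of miR399c stood in an unusual relation to those named miR399p and miR399q, which are shown for that reason.
miR399c_5p: gGGCGGUCcuccucuggcaag
miR399p_3p: cCUUGCCAgaggaggaccgcccug
miR399q_3p: uUGCCAGAggaggaccgcccu
miR399p_5p: gGGCAAUUcuccuuuggcaaagca
miR399q_5p: gGCAAUUCuccuuuggcaaag
The miR399c_5p sequence was fully complementary to miR399p_3p over 21 bases and to miR399q_3p over 20, and miR399c_3p to miR399p_5p over 19 bases and to miR399q_5p over 18. Between the arms of the 14 hairpin names with both arms listed, the longest unbroken complementary run was 5 to 11 bases, and 5 for miR399c itself. Positions in the genome were not analysed here. Reads were few for miR399p_3p (1 in all) and miR399q_3p (3), and neither 5p sequence had any.

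Depth limits most of what follows. Counting each sequence once, all listed miRNAs took 876770 to 1073284 reads in a flower library, 369605 to 662023 in a root library and 476517 to 530334 in a leaf library. Levels are in CPM, counts scaled to a common library total with TMM factors, and 3 reads, taken here as the most that a count of 0 allows, equalled 3.57 to 6.49 CPM. These limits and the intervals below cover counting error only. Over the 276 sequences with reads, which describe a library and are no replicates, Pearson's r of log2(CPM + 1) was 0.955 to 0.965 between flower libraries, 0.952 to 0.967 between root libraries and 0.958 between leaf1 and leaf23. The library leaf41 stood apart, with 0.860 and 0.874 to the other leaf libraries and 0.855 to 0.890 to the root libraries. The fold changes of tested sequences against leaf and the leaf shares of reads below are therefore given with and without it. Leaf means, medians over members, overlap counts and some fold changes with no filter keep it.

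Over all libraries 26 of the 39 member sequences (66.7%) had at least 1 read, against 82.8% of the 302 other sequences. In flower 18 were detected, in root 11 and in leaf 18, or 46.2%, 28.2% and 46.2%, where the other sequences reached 67.5%, 64.6% and 65.2%. All 3 libraries of an organ held the same sequence less often, for 7 members in flower, 6 in root and 4 in leaf. These were 17.9%, 15.4% and 10.3% of the members, where the other sequences reached 46.7%, 44.4% and 40.4%. By library the count ran from 6 in root13 to 16 in flower2 and 15 in leaf41, and without leaf41 the leaf count was 8, while without flower2 the flower count was 11. A total of 8 members were found in every organ, 6 in flower alone (at most 2 reads each), 2 in root alone and 5 in leaf alone, and 8 rested on 1 read. Of those in leaf alone, MIR395i_3p, MIR395j_5p, MIR399o_5p and miR395g_5p had reads in leaf41 only. The same split was not made over all sequences. With at least 10 reads in a library, 6 members were left in flower, 4 in root and 8 in leaf. These were 15.4%, 10.3% and 20.5%, where the other sequences reached 38.1%, 39.7% and 39.7%.

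**Figure D1:**
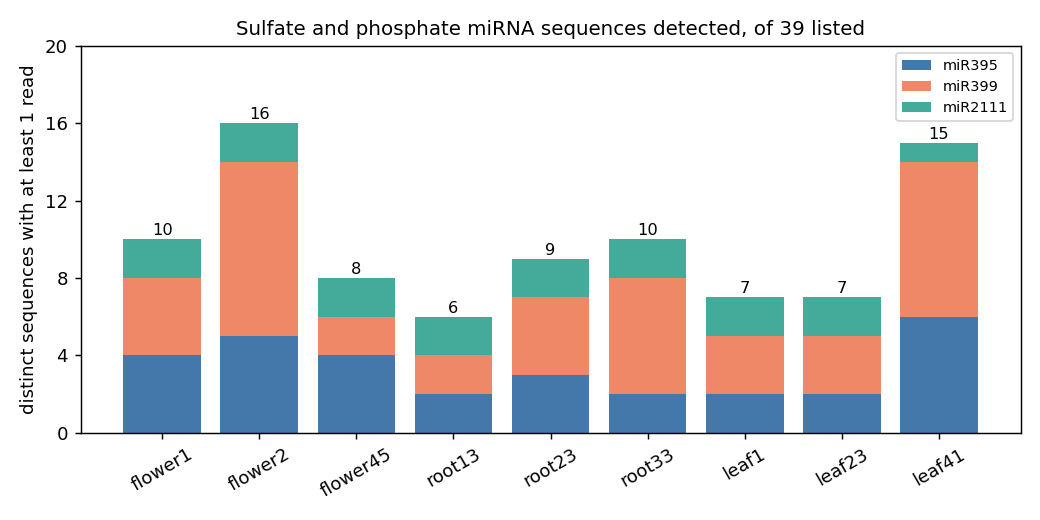
Number of distinct member sequences with at least 1 read in each library (bars, stacked by family; the total is written above). The libraries flower2 with 16 and leaf41 with 15 stand highest, and the other 7 hold 6 to 10.

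The 3p arm held 98.3% of the 6665 member reads, in 21 sequences of which 16 had reads, and the 5p arm had 10 of 18 sequences with reads. Of the 14 hairpin names with both arms listed, 12 had more reads on 3p, 1 (miR399e, 1 and 2 reads) on 5p, and MIR395j had 1 on each. The member reads were concentrated in few sequences: miR395g_3p had 5493, miR399c_3p 420, MIR2111a_5p 94 and MIR395k_3p 93, with MIR2111a_3p just below miR399c_3p. These 5 were the members that passed the low-count filter and were tested among 129 sequences. A further 6 had 10 or more reads but were not tested, 15 had 1 to 9 reads and 13 had none.

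miR395g_3p, the leading sequence of the sulfate family, had 713, 1711 and 2321 reads in flower1, flower2 and flower45, 1, 38 and 50 reads in root13, root23 and root33, and 38, 7 and 614 reads in leaf1, leaf23 and leaf41. Every flower library lay above every root library, leaf1 and leaf23 lay within the root range, and leaf41 was close to flower1. The mean CPM was 2021 ± 1151 for flower, 57.1 ± 53.3 for root and 357 ± 542 for leaf (SD over 3 libraries each). In these whole-organ libraries, fewer cells of a type and less of the miRNA per cell cannot be told apart.

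Flower exceeded root by 35.4-fold for miR395g_3p (log2 5.14 ± 1.73 SE, adjusted p = 0.0373 by edgeR's quasi-likelihood test). This call was made under all 5 scalings tried (log2 4.97 to 5.78) and was not called without root13 (adjusted p = 0.076), without root23 (0.112) or without flower2 (0.0662), where the log2 difference ranged from 4.68 to 5.31. Flower and leaf differed by log2 2.50 ± 1.53 (adjusted p = 0.235), and by 5.62 ± 1.54 without leaf41 (adjusted p = 0.0159). With no low-count filter and all libraries, the flower and leaf difference was called (log2 2.45 ± 0.94, adjusted p = 0.0394). Root and leaf differed by log2 -2.65 ± 1.55 (adjusted p = 0.185), a sign that turned to 0.31 ± 1.22 without leaf41 (adjusted p = 0.838). With no filter it was called lower in root (log2 -3.26 ± 0.97, adjusted p = 0.00664), and without leaf41 as well it was not (-0.83 ± 0.82, adjusted p = 0.507).

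MIR395k_3p, which lacks the first base of miR395g_3p, had 7, 30 and 34 reads in flower, 0, 2 and 0 in root, and 1, 0 and 19 in leaf, in the order of libraries above. The flower libraries again lay above all root libraries, and leaf41 alone of the leaf libraries was in the flower range. In flower it made 0.982, 1.75 and 1.46 reads per 100 reads of miR395g_3p, and in leaf41 3.09. The flower level was 22.2-fold that of root (log2 4.47 ± 1.60 SE, edgeR adjusted p = 0.0479). This call lay close to the threshold. It was lost with library totals as scaling (edgeR adjusted p = 0.0569) and with a fold of at least 2 (0.064). It was also lost without root13, root23, root33, flower2 or flower45 (0.0565 to 0.123). With only the 6 libraries of flower and root in the fit, MIR395k_3p did not pass the low-count filter and was not tested. Against leaf, flower differed by log2 1.43 ± 1.29 (adjusted p = 0.413), and by 4.77 ± 1.33 without leaf41 (adjusted p = 0.0175). Between root and leaf the difference was log2 -3.04 ± 1.60 with leaf41 (adjusted p = 0.145) and 0.07 ± 1.44 without it (adjusted p = 0.979). With no filter it was called lower in root (log2 -3.50 ± 1.17, adjusted p = 0.0167), and without leaf41 as well it was not (-0.70 ± 1.66, adjusted p = 0.829).

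MIR395r_3p was the 1 miR395 sequence read in root and in no other organ, with 15, 11 and 9 reads in root13, root23 and root33 and 0 in each flower and leaf library. Within root, root13 had 15 reads of MIR395r_3p and 1 of miR395g_3p. Its root level of 21.4 ± 4.89 CPM (SD, n = 3) was at least 5.68-fold higher than in flower and at least 3.87-fold higher than in leaf, taking 3 reads per library for the organs with none. The low-count filter left it out of the test with all libraries. With no filter, edgeR gave an adjusted p = 9.42e-05 against flower and an adjusted p = 0.00179 against leaf. It entered that fit through its root reads alone, so the direction was fixed beforehand and these values give it no support.

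The other miR395 members were rare. miR395b_3p had 2, 4 and 3 reads in flower, none in root, and 4 reads in leaf41 alone of the leaf libraries. MIR395i_3p, which has the G14A change of MIR395r_3p but keeps the first base of miR395g_3p, had 10 reads, all in leaf41. With no low-count filter, edgeR called miR395b_3p higher in flower than in root (adjusted p = 0.0438). In the same fit MIR395i_3p was called lower in flower than in leaf (edgeR adjusted p = 0.0136) and lower in root than in leaf (0.0203). MIR395i_3p entered that fit through leaf41 alone, so its direction was fixed beforehand and these values give it no support. MIR395n_3p (2 reads), MIR395j_3p (1) and the 5p sequences (5 reads over 4 of 8 sequences) stayed below the limit of 3 reads in each library. The sequences of miR395c_3p and miR395e_3p had no read. With the reads of an organ's libraries pooled, miR395g_3p took 98.3% of the miR395 reads in flower (4745 of 4829, exact 95% interval 97.9 to 98.6). It took 70.6% in root (89 of 126, 61.9 to 78.4) and 94.5% in leaf (659 of 697, 92.6 to 96.1), or 93.8% in leaf without leaf41 (45 of 48, 82.8 to 98.7). The root libraries differed, with 1 of 16 reads in root13, 38 of 51 in root23 and 50 of 59 in root33. The pooled intervals do not cover such spread between libraries.

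**Figure D2:**
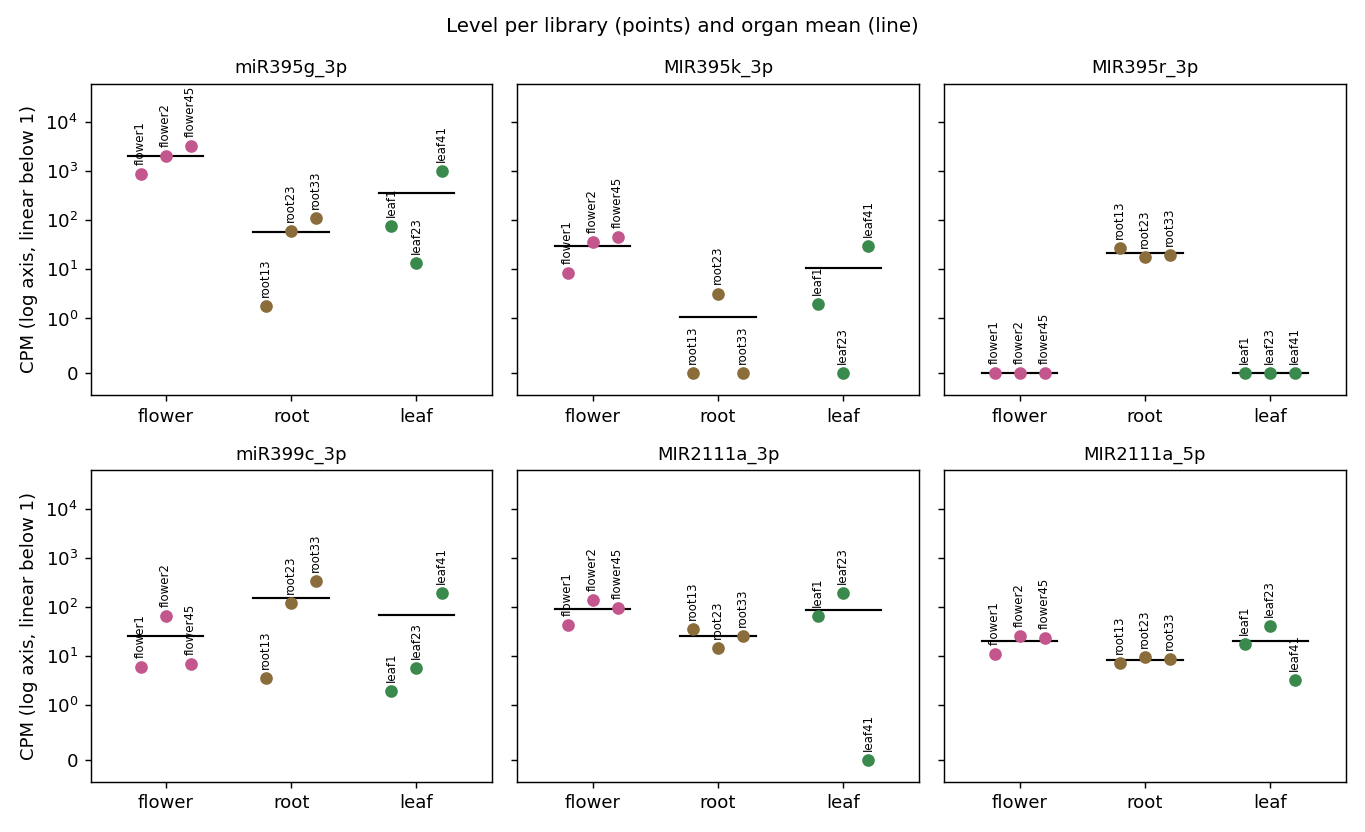
CPM per library (points, on an axis that is logarithmic above 1 and linear below) and the mean of the 3 libraries of an organ (line) for the 5 tested sequences and MIR395r_3p. For miR395g_3p and MIR395k_3p all flower points lie above all root points, MIR395r_3p has reads in root alone, and leaf41 lies above the other leaf points for miR395g_3p, MIR395k_3p and miR399c_3p and below them for both MIR2111a arms.

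miR399c_3p, the miR399 sequence with the most reads, had 5, 54 and 5 reads in flower1, flower2 and flower45, 2, 75 and 153 in root13, root23 and root33, and 1, 3 and 122 in leaf1, leaf23 and leaf41. The organs overlapped in every pair, since each had at least 1 library under 6 reads and at least 1 over 50. The mean CPM was 25.7 ± 33.4 for flower, 152 ± 166 for root and 67.6 ± 110 for leaf (SD over 3 libraries each), so the spread within an organ exceeded its mean. No pair of organs differed by edgeR: the log2 difference was -2.55 ± 1.81 SE for flower and root (adjusted p = 0.28), -1.39 ± 1.75 for flower and leaf (0.553) and 1.16 ± 1.73 for root and leaf (0.568). Without leaf41, root exceeded leaf by log2 5.15 ± 1.95 (adjusted p = 0.0467) and the flower and leaf difference turned to 2.70 ± 1.82 (adjusted p = 0.267). The root and leaf difference turned to -0.59 ± 1.91 without root33.

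The other miR399 members with at least 10 reads stayed under 20 in any library. miR399d_3p, with its single A13G difference, had 1, 12 and 2 reads in flower, none in root, and 1, 3 and 12 in leaf. MIR399o_3p had 0, 5 and 0 reads in flower, 3, 5 and 9 in root, and 0, 0 and 5 in leaf. MIR399l_3p had 3, 1 and 0 reads in flower, 0, 1 and 3 in root, and 0, 0 and 13 in leaf. In all 3, leaf41 held the highest leaf count, as it did for miR399c_3p, and for miR399d_3p and MIR399o_3p flower2 held the highest flower count.

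With no low-count filter, miR399d_3p was called lower in root than in leaf (edgeR adjusted p = 0.00136) and higher in flower than in root (adjusted p = 0.0057), where root had no read. Of its 16 leaf reads 12 were in leaf41, and without that library it was lower in root with an adjusted p = 0.011. That fit had no filter and was added after seeing the data. It rested on 1 read in leaf1 and 3 in leaf23, no more than the limit of 3 reads for a count of 0. Of the remaining miR399 sequences, 9 had 1 to 9 reads, led by miR399a_3p with 9, and 6 had none. miR399c_3p took 64.6% of the miR399 reads in flower (64 of 99, exact 95% interval 54.4 to 74.0), 89.8% in root (230 of 256, 85.5 to 93.3) and 73.7% in leaf (126 of 171, 66.4 to 80.1). Without leaf41 it took 4 of 10 leaf reads (exact 95% interval 12.2 to 73.8%).

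The miR395 and miR399 sequences with the most reads can be set against each other within a library, where no scaling enters. miR395g_3p made 99.3%, 96.9% and 99.8% of the reads of miR395g_3p and miR399c_3p together in flower1, flower2 and flower45 (exact 95% intervals within 96.0 to 99.9). In root13, root23 and root33 it made 33.3% (of 3 reads, 0.84 to 90.6), 33.6% (25.0 to 43.1) and 24.6% (18.9 to 31.2). In leaf1, leaf23 and leaf41 it made 97.4% (86.5 to 99.9), 70.0% (of 10 reads, 34.8 to 93.3) and 83.4% (80.5 to 86.0). miR399c_3p thus had more reads than miR395g_3p in each root library and fewer in each flower and leaf library. In leaf41, where the counts of both were far above those of the other leaf libraries, the share lay between theirs.

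**Figure D3:**
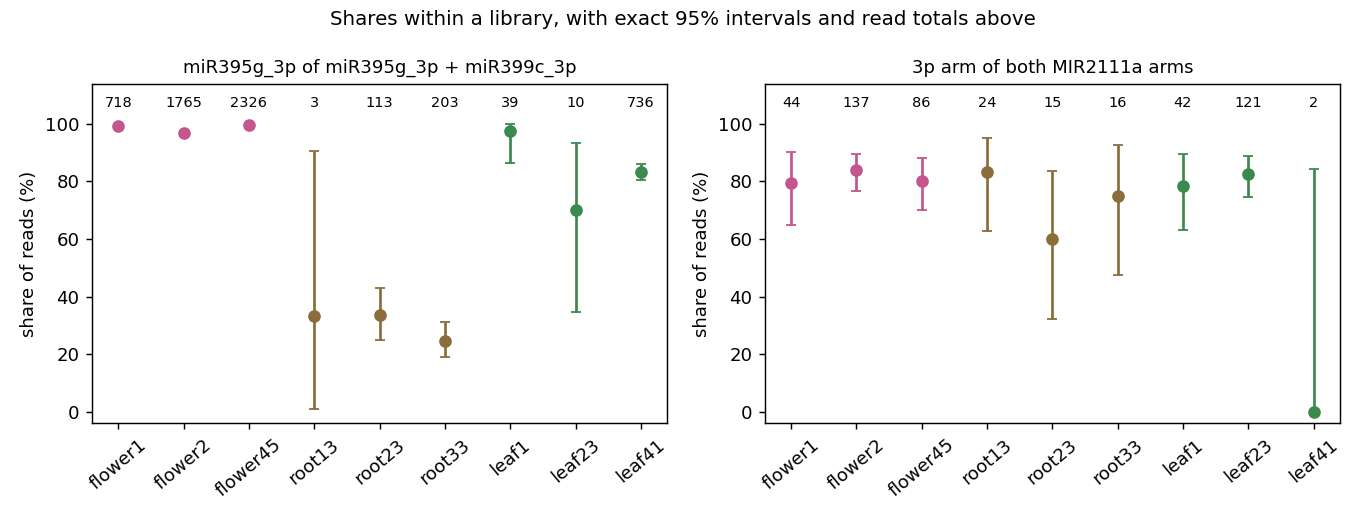
Left, the share of miR395g_3p in the reads of miR395g_3p and miR399c_3p together; right, the share of the 3p arm in the reads of both MIR2111a arms, each in percent per library with exact 95% intervals and the number of reads above. The root libraries lie at 24.6 to 33.6% on the left and all others at 70.0% or more; on the right every library other than leaf41, with 2 reads, lies at 60.0 to 83.9%.

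miR2111 was represented by 1 hairpin, and both of its arms were tested. MIR2111a_3p had 35, 115 and 69 reads in flower, 20, 9 and 12 in root, and 33, 100 and 0 in leaf. MIR2111a_5p, the arm known as the active strand in Arabidopsis and Lotus, had 9, 22 and 17 reads in flower, 4, 6 and 4 in root, and 9, 21 and 2 in leaf. For both arms the flower libraries lay above the root libraries in CPM, and leaf23 was the highest and leaf41 the lowest of all 9 libraries.

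The 3p arm had more reads than the 5p arm in each library except leaf41, which had 0 and 2. Its share averaged 81.2% ± 2.36 in flower and 72.8% ± 11.8 in root (SD, n = 3 each) and was 78.6% and 82.6% in leaf1 and leaf23. In the library leaf23 the exact 95% interval was 74.7 to 88.9.

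In CPM, MIR2111a_3p averaged 91.1 ± 47.3 for flower, 25.5 ± 10.7 for root and 86.4 ± 98.6 for leaf, and MIR2111a_5p 20.1 ± 8.09, 8.50 ± 1.25 and 20.6 ± 18.9 in the same organs (SD, n = 3 each). No difference passed the threshold by edgeR with all libraries and the low-count filter. Flower and root differed by log2 1.83 ± 1.33 SE for the 3p arm (adjusted p = 0.284) and by 1.22 ± 0.81 for the 5p arm (0.251). With only the 6 libraries of flower and root in the fit, the 3p arm was called (log2 2.08 ± 0.69, adjusted p = 0.033).

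Root and leaf differed by log2 -1.76 ± 1.33 for the 3p arm (edgeR adjusted p = 0.298) and by -1.25 ± 0.82 for the 5p arm (0.238). With no filter the 3p arm was called lower in root (log2 -2.93 ± 1.08, adjusted p = 0.0321). Without leaf41 both were called lower in root, by log2 -2.39 ± 0.83 (adjusted p = 0.0347) and -1.88 ± 0.67 (adjusted p = 0.038). Flower and leaf differed by log2 0.08 ± 1.28 and -0.03 ± 0.78, values whose sign turned with the scaling, and by -0.47 ± 0.81 and -0.49 ± 0.64 without leaf41 (adjusted p = 0.7 and 0.611).

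miR827 was represented by 1 sequence, miR827a_3p, which had no read in any library. Over the 5905296 reads of all libraries this allows a level of up to 0.508 CPM, and within a library up to the limit of 3.57 to 6.49 CPM given above. The sequence is spelled with T in the deposited table. Of the 8 member names so spelled 6 had no read, against 8 of 33 spelled with U; among the other names the counts were 22 of 90 and 28 of 236.

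**Figure D4:**
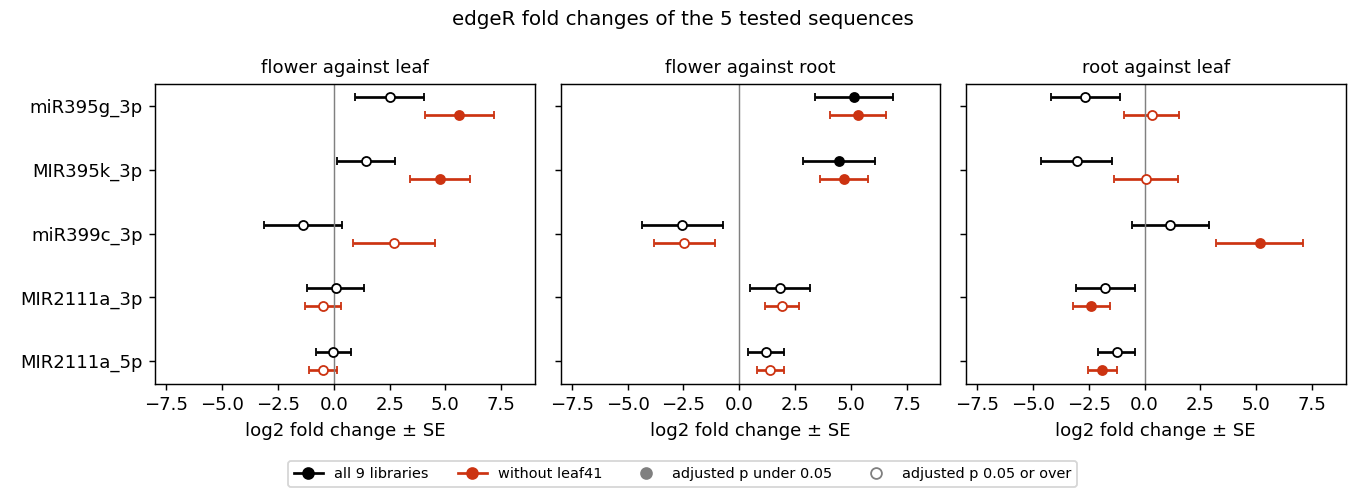
log2 fold change with its standard error for the 5 tested sequences in each pair of organs, positive where the organ named first is higher, with all 9 libraries (black) and without leaf41 (red); filled points have an edgeR adjusted p under 0.05. With all libraries miR395g_3p and MIR395k_3p in flower against root are filled, and leaving out leaf41 moves the miR395 and miR399c_3p points of both comparisons with leaf.

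In counts, 2 of the 5 tested members differed between flower and root, both higher in flower and both of miR395, where 42.6% of the 129 tested sequences differed and 18.6% were higher in flower. The libraries of the 2 organs did not overlap in CPM for 4 of the 5, all higher in flower, and for 67.4% of all tested sequences (31.8% higher and 35.7% lower in flower). The tested members had a median log2 difference of 1.83 and all tested sequences one of -0.04. With no filter, 5 of the 26 members with reads were called, 4 higher and 1 lower in flower. Of all 276 sequences 25.7% were called, 12.7% higher and 13% lower in flower. The 1 lower was MIR395r_3p, which entered through root alone, so its direction was fixed beforehand.

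Between flower and leaf no member was called by edgeR, none had an unadjusted p under 0.05 and DESeq2 called none, against 36.4% of all tested sequences. The libraries overlapped for all 5 tested members, while 46.5% of all tested sequences did not overlap (26.4% higher and 20.2% lower in flower). The median log2 difference was 0.08 over the tested members and -0.12 over all. With no filter, 2 of the 26 members with reads were called, miR395g_3p higher and MIR395i_3p lower in flower, against 22.8% of 276 sequences. MIR395i_3p entered that fit through leaf41 alone, so its direction was fixed beforehand. Without leaf41, 2 of 6 tested were called, miR395g_3p and MIR395k_3p, both higher in flower, where 43.3% of 141 tested sequences were called and 24.8% were higher in flower.

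Between root and leaf no member was called by edgeR and none had an unadjusted p under 0.05, against 34.9% of all tested sequences, and DESeq2 called miR395g_3p lower in root (log2 -3.02 ± 1.30, adjusted p = 0.0381). The libraries overlapped for all 5 tested members, while 56.6% of all tested sequences did not overlap (36.4% higher and 20.2% lower in root). The median log2 difference was -1.76 over the tested members and 0.56 over all. With no filter, 6 of the 26 members with reads were called, MIR395r_3p higher in root and miR395g_3p, MIR395k_3p, MIR395i_3p, miR399d_3p and MIR2111a_3p lower, against 23.6% of 276 sequences. Without leaf41, 4 of 6 tested were called: miR399c_3p and MIR395r_3p higher in root, and both MIR2111a arms lower. In that fit 56.7% of 141 tested sequences were called, 36.9% higher and 19.9% lower in root. MIR395r_3p entered both fits, the one with no filter and the one without leaf41, through its reads in root alone. MIR395i_3p entered the one with no filter through leaf41 alone. Their directions were therefore fixed beforehand. The comparisons share organs, so their values are not independent of one another.

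The median over all tested sequences moved with the scaling, from -0.34 to 0.64 for flower and root, from -1.16 to 0.46 for flower and leaf and from -0.34 to 0.56 for root and leaf. Relative to that median, miR395g_3p stood at log2 5.13 to 5.31 for flower against root under the 5 scalings, at 2.45 to 2.88 for flower against leaf and at -3.51 to -3.09 for root against leaf. miR399c_3p stood at -2.51 to -2.40, at -1.42 to -1.04 and at 0.28 to 0.71 in the same pairs, and MIR2111a_3p at 1.64 to 1.87, at 0.05 to 0.26 and at -2.34 to -2.15. These ranges keep leaf41. Without it, under TMM and before subtracting the median, miR395g_3p stood at 5.62 for flower against leaf and 0.31 for root against leaf. In the same pairs miR399c_3p stood at 2.70 and 5.15, MIR2111a_3p at -0.47 and -2.39, and the median over all at 0.35 and 0.81.

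Other families that respond to nutrient supply gave a background for these levels. Of the copper-linked miR397, miR398, miR408 and miR857, 10 sequences were listed and 5 tested. In root 3 were higher and none lower than in leaf by edgeR, and in flower 1 was higher and 1 lower than in root. None was called between flower and leaf (smallest edgeR adjusted p = 0.0716). Of all 129 tested sequences, 21.7% were higher and 13.2% lower in root than in leaf. In flower 18.6% were higher and 24% lower than in root, and 17.1% higher and 19.4% lower than in leaf. Without leaf41, 2 were higher and 1 lower in root than in leaf, and 3 were lower in flower than in leaf, of 6 tested. Of all 141 sequences tested there, 36.9% were higher and 19.9% lower in root than in leaf. In flower 24.8% were higher and 18.4% lower than in leaf. MIR398c_3p, whose family acts on copper superoxide dismutases, had 275, 1642 and 13207 CPM in flower and 0, 0 and 60.6 in root (log2 7.98 ± 2.62 SE, adjusted p = 0.0349). Like miR395g_3p, it was high in leaf41 (7509 CPM) and lower in leaf1 and leaf23 (111 and 430).

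miR408_3p, of a family that acts on copper proteins, ran the other way, with 8.47, 14.3 and 8.18 CPM in flower and 370, 295 and 245 in root (log2 -4.85 ± 0.99 SE, edgeR adjusted p = 0.00383). miR397_5p, of a family that acts on laccases, had 725, 489 and 407 CPM in root and 57.5, 95.01 and 33.6 in leaf (log2 3.12 ± 0.77, adjusted p = 0.0139), and miR397_3p had 303.3, 135 and 73.6 CPM in root and 21.8, 25.2 and 12.8 in leaf (log2 3.09 ± 0.92, adjusted p = 0.0304). Without leaf41 the differences were 2.75 ± 0.82 and 2.81 ± 1.06 (adjusted p = 0.0212 and 0.0466).

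Of the nitrogen-linked miR169, miR393, miR826 and miR5090, 21 sequences were listed and 11 tested. By edgeR 2 were higher in root than in leaf, 2 were higher and 1 lower in flower than in leaf, and 2 were lower in flower than in root. Without leaf41, of 12 tested 6 were higher and 1 lower in root than in leaf, and 4 were higher and 1 lower in flower than in leaf. The shares over all tested sequences are those given with the copper-linked families. miR169d_3p, of a family whose 5p strand acts on NF-YA transcription factors, had 67.8, 285 and 49.1 CPM in flower, 151, 142 and 201 in root and 17.9, 27.1 and 19.2 in leaf (log2 2.64 ± 0.82 SE for flower against leaf and 2.93 ± 0.83 for root against leaf; adjusted p = 0.0307 and 0.0257). Without leaf41 its difference from leaf was 2.62 ± 0.96 in flower (adjusted p = 0.0512, no longer called) and 2.80 ± 0.97 in root (0.0343). MIR169k_5p had 3.63, 9.51 and 12.3 CPM in flower, 44.9, 49.9 and 69.3 in root and 59.5, 44.6 and 137 in leaf, and was lower in flower than in leaf (log2 -3.23 ± 0.74, and -2.51 ± 0.68 without leaf41) and than in root (-2.67 ± 0.72). MIR169g_3p had 12.6, 43.5 and 77.9 CPM in root and 0, 0 and 7.99 in leaf (log2 3.88 ± 1.34, adjusted p = 0.0497; adjusted p = 0.0123 without leaf41, where both other leaf libraries were at 0). MIR169i_3p had 0, 1.19 and 0 CPM in flower and 41.3, 19.3 and 567 in root (log2 -8.42 ± 2.32, adjusted p = 0.0158). No sequence of miR778, which also responds to phosphate in Arabidopsis, was listed.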

How the data were processed

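The deposited table gives, per the file headers, 9 columns of whole-number counts, which the authors did not normalise, and beside each a normalised score, RPTM, in whole numbers after rounding by the authors. The score is the count divided by a constant per library, 2.11 to 2.25, and the header does not define it. Which programs trimmed, aligned and counted the reads, and on which genome build, is not given in the sources used here. Rows of the same sequence hold the same counts and were joined, since keeping them would count reads more than once; 1 blank row was left out.

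Counts of 341 sequences entered the quasi-likelihood test of edgeR 4.0.16 (glmQLFit and glmQLFTest, R 4.3.3), with the 9 libraries fitted together, TMM scaling, low counts removed by filterByExpr with organ as the group, and Benjamini-Hochberg adjustment over the 129 sequences kept, at 0.05. A standard error is the size of the log2 fold change over the root of its F statistic. The steps were tested on simulated counts. Exact binomial intervals came from scipy 1.17.1. No pair of libraries agreed within counting noise. The alternatives were DESeq2 1.42.0, other scalings, rows kept apart, no filter, a fold of at least 2, 6 libraries, and each library left out in turn; values without leaf41 for unfiltered members, family shares and the other lists were added after seeing the data.

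The members, the nutrient lists and the tests were chosen with earlier results of these data known. Members with at least 10 reads were given by library. Of the copper and nitrogen lists, per comparison the 2 called sequences with the smallest adjusted p were named.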

Additional observations from a re-analysis of the deposited data

How the results depend on the processing

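Of 250 single fold changes of members recomputed under the alternatives, 209 kept their direction and their side of the threshold. The count of members called, 2 for flower and root, was 1 with library totals and with a fold of at least 2, and 5 with no filter. It was 0 to 3 when a library was left out (0 without root13, root23 or flower2, and 1 without root33 or flower45). With only the 6 libraries of flower and root, 3 of 4 tested members and 70 of 129 sequences were called. The 3 were miR395g_3p and MIR2111a_3p, higher in flower, and MIR395r_3p, lower. MIR395r_3p passed that filter through root alone, and MIR395k_3p did not pass it. Of the 3 calls without leaf1, leaf23 or leaf41, 1 was MIR395r_3p, lower in flower, which passed the filter through root alone. Over all sequences the 55 calls for flower and root were 71 with no filter and 38 to 71 when a library was left out. For flower and leaf, 0 became 2 with no filter and 0 to 2 when a library was left out (2 without leaf41). For root and leaf, 0 became 1 with DESeq2, 6 with no filter, and 0 to 4 when a library was left out (1 without leaf1 or leaf23, 4 without leaf41). The 1 call without leaf1 or leaf23, and 1 of the 4 without leaf41, was MIR395r_3p, which passed the filter through root alone. With no filter, the 6 included MIR395r_3p, kept through root alone, and MIR395i_3p, kept through leaf41 alone. MIR395i_3p was also 1 of the 2 for flower and leaf. These directions were fixed beforehand. With no filter and without leaf41, a pair of choices made after seeing the data, 5 members and 92 sequences were called for root and leaf, and 2 and 80 for flower and leaf. Of the 5 members, 1 was MIR395r_3p, kept through root alone, so its direction was fixed beforehand. The number of sequences in that fit is not given here, so these counts have no share beside them. Over all sequences, the 45 calls for root and leaf were 68 with DESeq2, 24 with a fold of at least 2 and 25 to 80 when a library was left out, and the 47 for flower and leaf were 31 to 61. The split of 28 higher and 17 lower in root was 14 and 36 with all rows kept, 26 and 28 with the DESeq2 size factors and 16 and 49 with no filter. For flower and leaf the 22 higher and 25 lower were 20 and 48 with all rows kept and 30 and 21 with the authors' divisor. For flower and root the 24 and 31 were 37 and 29 with that divisor. The cause was not tested, and some of the fits also differed in their number of sequences or libraries.

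Signs turned only in pairs where the main fit made no call. Some of these were called under an alternative: miR395g_3p, MIR395k_3p and miR399c_3p for root and leaf. MIR2111a_3p for flower and leaf was -1.03 with all rows kept, -0.28 with DESeq2, -0.27 with its size factors, -0.31 with library totals, -0.73 with no filter, -0.76 with 6 libraries, and -0.84 to 1.59 with a library left out. MIR2111a_5p was 0.59 with the authors' divisor and -0.97 to 1.03 with a library left out, and miR399c_3p -3.33 to 2.70. For root and leaf, leaving out a library gave -5.83 to 0.075 for MIR395k_3p, -3.94 to 0.31 for miR395g_3p and -0.59 to 5.15 for miR399c_3p.

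Members detected in flower numbered 10 at 3 reads, 6 at 10 reads and 7 in every library (11 to 17 with a library left out), in root 7, 4 and 6, and in leaf 11, 8 and 4 (8 to 18). No paired analysis was possible because the organs share fewer than 2 library numbers in the labels.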
